A study of Mus musculus with 6 samples.

Results

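Bile acid synthesis and conjugation was followed through 10 genes, chosen by name as enzymes of the classic and the alternative pathway, of 48432 genes in the table. These are Cyp7a1, Cyp8b1, Cyp7b1, Cyp27a1, Cyp39a1, Hsd3b7, Akr1d1, Amacr, Slc27a5 and Baat. All 10 were above 0 TPM in all 6 samples, and all 10 were among the 14307 genes tested. The samples were hepatocytes of FVB mice in 3 groups of 2, read as polyadenylated RNA in stranded libraries. The DDC fed group came from adults given DDC, a porphyrin-inducing compound that injures liver and bile ducts, for 4 weeks. The E18 group came from embryos at embryonic day 18, and each sample pooled the livers of about 8 of them. The normal fed group came from adults without DDC. No genetic change is labelled in any group, and the labels give no age for the adults. Whether the 2 samples of an adult group stem from different animals is not labelled either. The p-values thus measure the spread between these samples, which may be technical. Samples are called 0 and 1 within a group, as the table numbers its columns.

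Hepatocytes turn cholesterol into bile acids. The classic pathway starts with Cyp7a1 in the endoplasmic reticulum, and the alternative pathway starts with side-chain oxidation by the mitochondrial Cyp27a1 and goes on through Cyp7b1. The routes then share ring-modifying enzymes, peroxisomal side-chain shortening and the coupling of the finished acid to taurine or glycine, which in the mouse is mostly taurine. Bile acids returning to the liver repress their own synthesis through the nuclear receptor FXR, encoded by Nr1h4, its target SHP, encoded by Nr0b2, and the intestinal hormone FGF15.

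Promoter sequences were matched by symbol for 4 of the 10 genes (Cyp8b1, Cyp27a1, Hsd3b7 and Akr1d1), as RefSeq sequence on GRCm38.p6. The 2 printed here belong to the matched genes with the largest and the smallest difference between DDC fed and normal fed adults. Each is the 250 bases before the RefSeq start site, read along the gene's own strand. That of Cyp8b1 lies at chr9:121916306-121916555 on the minus strand, and that of Hsd3b7 at chr7:127800359-127800608 on the plus strand. In the gene positions given below Hsd3b7 starts at 127800604, so the last bases of its window lie inside the gene by that annotation. Capitals mark matches to the motifs searched on both strands.
Cyp8b1: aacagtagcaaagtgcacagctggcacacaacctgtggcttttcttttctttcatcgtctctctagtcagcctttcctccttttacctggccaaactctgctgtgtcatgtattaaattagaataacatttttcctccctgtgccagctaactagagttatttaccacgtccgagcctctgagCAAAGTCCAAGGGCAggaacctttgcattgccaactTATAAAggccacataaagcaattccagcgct
Hsd3b7: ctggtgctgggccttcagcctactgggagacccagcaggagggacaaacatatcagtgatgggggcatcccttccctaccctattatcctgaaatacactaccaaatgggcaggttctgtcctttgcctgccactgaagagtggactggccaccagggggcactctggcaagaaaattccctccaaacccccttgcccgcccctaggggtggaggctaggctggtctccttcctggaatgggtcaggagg
In the Cyp8b1 sequence the first run of capitals is CAAAGTCCA, a site of the receptor HNF4, at -67 to -59, which shares its last bases with CAAGGNCA, a site of the receptor LRH-1 encoded by Nr5a2, at -60 to -53. The HNF4 letters occur in 0.384% of 32851 mouse promoter windows of the same length, and the LRH-1 letters in 5.53%. The second run is TATAAA at -31 to -26, which 12.4% of windows hold. The pair overlapping in this way, searched after this sequence had been seen, occurs in 1 of the 32851 windows. No searched motif was matched in the Hsd3b7 window. Of the windows not printed, that of Akr1d1 held AGGTCA on its minus strand at -232 to -227 and at -210 to -205, and TTATGNAA, overlapping TTGCNNAA, at -8 to -1. That of Cyp27a1, whose listed start was not found in the annotated transcripts, held TTATGNAA at -60 to -53 and CCAAT on its minus strand at -71 to -67 and -34 to -30. The other motifs searched were AGGTCA (in 14.0% of windows), its inverted repeat bound by FXR, TTGCNNAA (9.56%), TTATGNAA (3.07%) and CCAAT (33.8%). A match is a description of letters and not evidence of binding.

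The 10 genes summed to 1719 and 1734 TPM in DDC fed samples, 645.6 and 421.1 TPM in E18 samples, and 3254 and 2354 TPM in normal fed samples. The groups did not overlap, and normal fed samples were highest and E18 samples lowest. The log2 difference of the sums from normal fed adults was -0.68 with DDC and -2.41 at E18, and that between DDC fed adults and E18 was 1.73. The sums are given as a description with no p, since the genes were chosen by name with earlier results known. The order of the genes also differed between groups, and TPM, being scaled by transcript length, allows levels to be set side by side. A limit is that replicates differed with exon length, most in normal fed samples, as given below. In DDC fed samples Slc27a5 and Cyp27a1 were highest, with means of 394 and 368 TPM and ranges that overlapped, and Cyp8b1 was lowest. In E18 samples Hsd3b7 was highest at a mean of 175 TPM and Cyp7b1 lowest. In normal fed samples Cyp7b1, Slc27a5 and Cyp27a1 were highest, at means of 599, 580 and 503 TPM with overlapping ranges, and Cyp39a1 was lowest.

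The makeup of the sum differed as well. Cyp7b1 held 2.41% and 2.32% of the summed TPM in DDC fed samples, 0.138% and 0.134% in E18 samples, and 24.2% and 17.5% in normal fed samples. It thus made up a large part of the sum in normal fed samples and very little of it in the others. Hsd3b7 held 15.6% ± 0.533 of the sum in DDC fed samples, 32.9% ± 0.673 in E18 samples, and 9.76% ± 2.99 in normal fed samples (SD, n = 2 each). Cyp8b1 held 0.363% and 0.444% in DDC fed samples, 13.2% and 14.9% in E18 samples, and 6.22% and 7.36% in normal fed samples. For these genes the shares did not overlap between groups, and Hsd3b7 and Cyp8b1 held their highest share at E18 although their TPM was not highest there. Akr1d1 held 12.6% and 14.7% in DDC fed samples, 14.9% and 14.3% in E18 samples, and 5.16% and 4.84% in normal fed samples, so its share overlapped between DDC fed and E18 samples and was lower in normal fed samples. The conjugating gene Baat held 14.4% and 15.9% in DDC fed samples, 1.37% and 1.36% in E18 samples, and 9.27% and 17.4% in normal fed samples, lowest at E18 and overlapping between the adult groups.

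**Figure D1:**
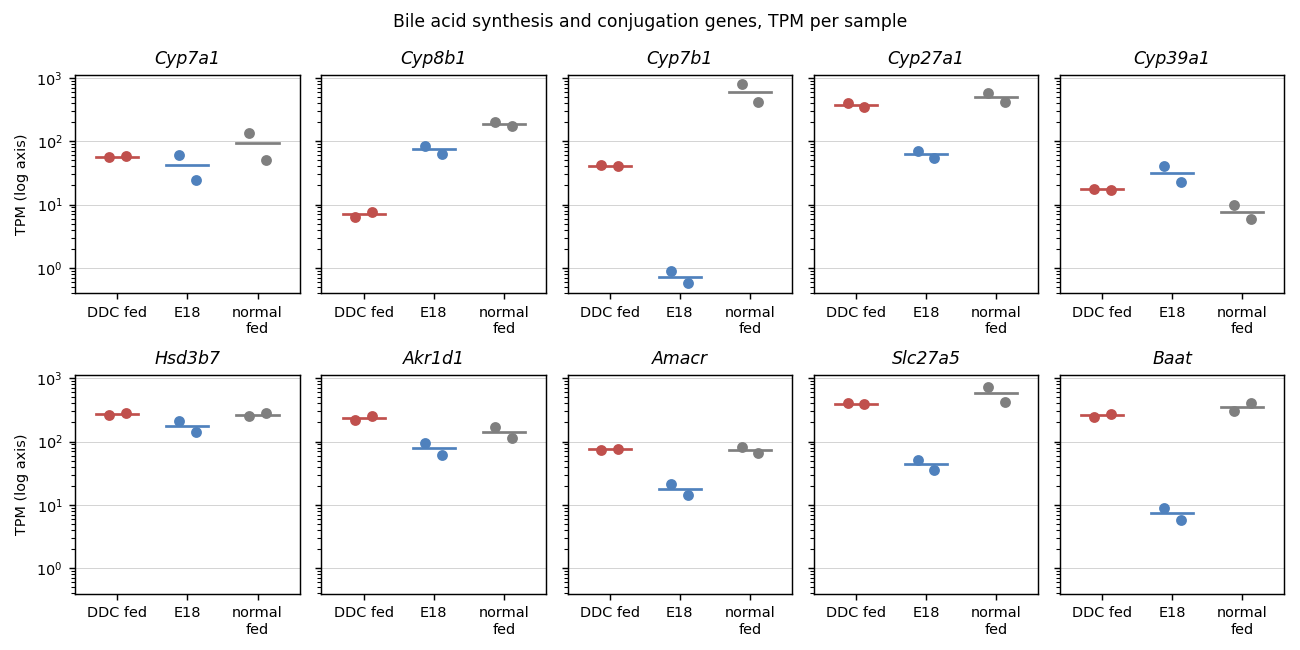
TPM of the 10 genes in each sample, on a log axis, with DDC fed, E18 and normal fed samples as separate points for each gene. Cyp8b1 sits lowest in the DDC fed samples at 6.24 and 7.70 TPM, and Cyp7b1 lowest in the E18 samples at 0.888 and 0.566 TPM.

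Before the single genes, the samples were checked against cell type markers. Of 8 hepatocyte markers 7 were matched, and their summed level was 10419 to 11176 TPM in DDC fed, 3441 to 5416 TPM in E18 and 12378 to 14225 TPM in normal fed samples. Serpina1c was listed at 0 in both normal fed samples, and Tat was at 10.9 and 7.82 TPM in E18 samples, against 1533 and 1100 TPM in normal fed samples. Among all genes tested 34.2% were higher with DDC and 63.0% at E18, beside which the marker counts below stand. Macrophage markers, all 8 higher with DDC and at E18, summed to 774.5 to 942.4 TPM in DDC fed, 3307 to 4130 TPM in E18 and 79.4 to 81.1 TPM in normal fed samples. Endothelial markers summed to 162 to 169, 383 to 397 and 14.5 to 39.9 TPM, and stellate cell and fibroblast markers to 293 to 318, 217 to 237 and at most 24.6 TPM, each in the order DDC fed, E18 and normal fed. With DDC all 7 of both lists were higher, and at E18 7 endothelial and 6 stellate cell and fibroblast markers. Erythroid markers summed to 8.48 and 7.68 TPM in DDC fed, 12401 and 23431 TPM in E18 and 26.0 and 16.8 TPM in normal fed samples. Other blood cell markers summed to 11.6 and 12.1 TPM in DDC fed, 3273 and 4146 TPM in E18 and 2.23 and 2.38 TPM in normal fed samples. All 7 erythroid and all 6 other blood cell markers tested were higher at E18. With DDC 3 of the 6 other blood cell markers were higher, and of the 7 erythroid markers 0 were higher and 1 was lower. Cholangiocyte markers, of which 2 of 5 tested were higher with DDC and 4 of 5 at E18, summed to 70.7 and 89.3 TPM in DDC fed, 140 and 89.8 TPM in E18 and 3.87 and 3.43 TPM in normal fed samples. Spp1, at 56.5 and 67.6 TPM in DDC fed samples, against 2.01 and 1.81 TPM in normal fed samples, and Sox9, at 12.7 and 19.8 TPM in DDC fed samples, against 1.73 and 1.54 TPM in normal fed samples, made up most of the DDC fed sum. Of the others Epcam was highest in DDC fed samples, at 1.22 and 1.39 TPM, against 0.0534 and 0.0441 TPM in normal fed samples. It did not pass with DDC (log2 fold change 1.13, limma adjusted p = 0.0787). Krt19 was at 0.0909 and 0.227 TPM and Cftr at 0.0270 and 0.0262 TPM in DDC fed samples. In normal fed samples Krt19 was at 0.0482 and 0 TPM and Cftr at 0 in both. In bulk RNA, fewer hepatocytes in a sample and less of a transcript per hepatocyte cannot be told apart. The part of these other cells in the differences given here was not tested.

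With DDC, 2 of the 10 genes fell, 1 rose and 7 did not pass the test. Among all genes tested 3.07% fell and 34.2% rose, 37.3% in either direction. Cyp8b1 and Cyp7b1 were the genes that fell, and Cyp39a1 was the gene that rose. The median log2 fold change of the 10 was -0.43, against 0.45 for all genes. Groups did not overlap for 7 of the 10, against 71.4% of all genes. Tests were made with limma on log2(TPM + 1), with Benjamini-Hochberg adjustment over all genes tested and a threshold of 0.05.

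At E18, 7 of the 10 genes fell against normal fed adults, 1 rose and 2 did not pass. Among all genes 12.7% fell and 63.0% rose, 75.7% in either direction. The genes that fell were Cyp8b1, Cyp7b1, Cyp27a1, Akr1d1, Amacr, Slc27a5 and Baat, and Cyp39a1 rose. Of these, Cyp8b1, Akr1d1 and Amacr changed sign when samples were scaled to hepatocyte markers. The median was -1.67, against 1.06 for all genes, and groups did not overlap for 9 of the 10, against 86.4% of all genes. In DDC fed adults against E18, 6 rose, 1 fell and 3 did not pass, where 17.7% and 47.0% of all genes rose and fell and 64.7% changed in either direction. Here the median was 1.83, against -0.55 for all genes, and groups did not overlap for 9 of the 10, against 90.0% of all genes. The comparisons of DDC fed and of E18 samples with normal fed adults share the normal fed samples, so their values stand side by side without a test of likeness.

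**Figure D2:**
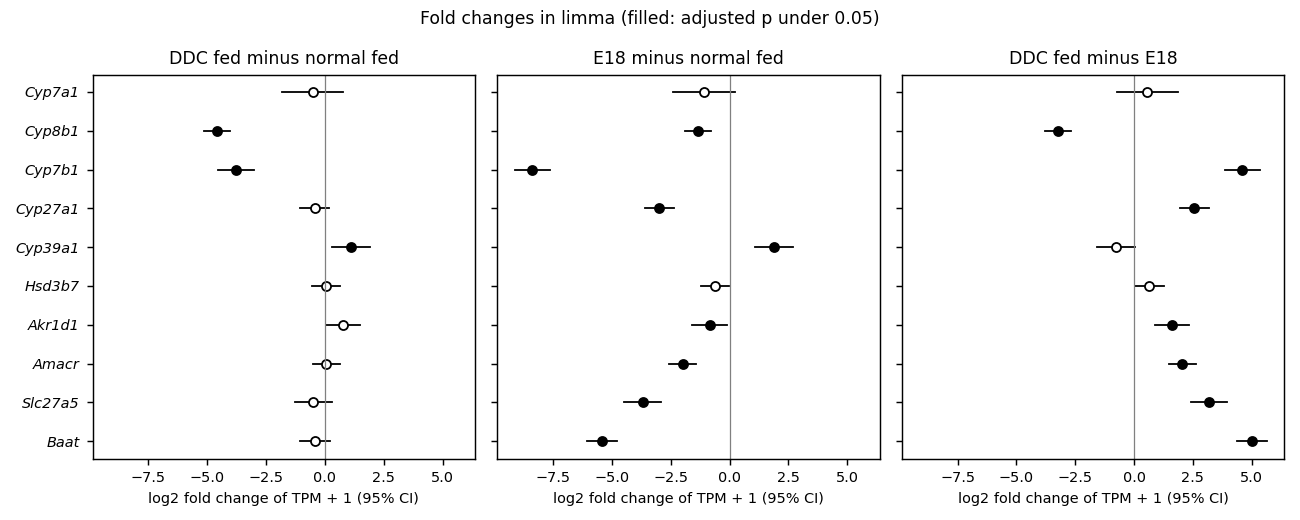
Log2 fold change of the 10 genes with its 95% confidence interval in panels for DDC fed minus normal fed, E18 minus normal fed and DDC fed minus E18. Filled points passed an adjusted p of 0.05, and the left-most value is that of Cyp8b1 in the DDC fed minus normal fed panel (-4.57) and that of Cyp7b1 in the E18 minus normal fed panel (-8.37).

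Cyp7a1, the rate-limiting enzyme of the classic pathway (chromosome 4, 6265612 to 6275633, minus strand, GRCm38), did not pass the test in any of the 3 comparisons with TPM as deposited. It was at 55.8 and 58.4 TPM in DDC fed samples, 60.5 and 24.4 TPM in E18 samples, and 134 and 50.6 TPM in normal fed samples. The DDC fed samples lay close together, and the normal fed and E18 samples each spread widely, so that the ranges of all groups overlapped. The log2 fold change was -0.53 ± 0.55 with DDC (SE, n = 2 a group, limma adjusted p = 0.483), with a 95% interval of -1.83 to 0.78. It was -1.08 ± 0.55 at E18 (limma adjusted p = 0.111), with an interval of -2.38 to 0.22, and 0.55 ± 0.55 for DDC fed adults against E18 (limma adjusted p = 0.401). Without normal fed sample 0 the DDC value was 0.17. At E18 the gene passed as lower in 6 of 20 alternatives, among them median-ratio scaling (-2.26, adjusted p = 0.00558), exon length correction and quantile normalization (-1.75, adjusted p = 0.0237). It passed as higher with hepatocyte marker scaling (1.30, adjusted p = 0.00599). For DDC fed adults against E18 the same scaling gave -1.65 (limma adjusted p = 0.00148).

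Cyp8b1, whose hydroxylation makes cholic acid and so sets its share among bile acids, fell with DDC and at E18, where the sign turned under hepatocyte marker scaling, and was lower with DDC than at E18. It is a gene of 1 exon (chromosome 9, 121914356 to 121916305, minus strand). It was at 6.24 and 7.70 TPM in DDC fed samples, 85.5 and 62.7 TPM in E18 samples, and 202 and 173 TPM in normal fed samples. All 3 groups were apart, with DDC fed samples lowest. The DDC fed mean was 3.71% of the normal fed mean and 9.40% of the E18 mean, and the E18 mean was 39.5% of the normal fed mean. The log2 fold change was -4.57 ± 0.23 with DDC (limma adjusted p = 4.8e-05), -1.34 ± 0.23 at E18 (adjusted p = 0.00168) and -3.23 ± 0.23 for DDC fed adults against E18 (adjusted p = 3.7e-05).

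Cyp7b1, the oxysterol hydroxylase of the alternative pathway (chromosome 3, 18071950 to 18243338, minus strand), fell in both comparisons with normal fed adults, and was lowest at E18. It was at 41.4 and 40.2 TPM in DDC fed samples, 0.888 and 0.566 TPM in E18 samples, and 787 and 412 TPM in normal fed samples. The groups were far apart although the normal fed samples differed widely. The DDC fed mean was 6.80% and the E18 mean 0.121% of the normal fed mean. The log2 fold change was -3.77 ± 0.32 with DDC (limma adjusted p = 0.00029), -8.37 ± 0.32 at E18 (adjusted p = 1.9e-06) and 4.60 ± 0.32 for DDC fed adults against E18 (adjusted p = 3.1e-05). As E18 values lie below the pseudocount of 1, the E18 fold change depends on it and was -6.65 with a pseudocount of 5 and -9.45 with 0.1.

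Cyp27a1, which opens the alternative pathway and also oxidises the side chain in the classic one (chromosome 1, 74713574 to 74737892, plus strand), fell at E18. It was at 396 and 341 TPM in DDC fed samples, 70.3 and 54.4 TPM in E18 samples, and 585 and 422 TPM in normal fed samples. The DDC fed samples were both below the normal fed samples, and the E18 samples below both. Its log2 fold change was -0.43 ± 0.26 with DDC (limma adjusted p = 0.227) and -2.98 ± 0.26 at E18 (adjusted p = 5.4e-05), and 2.55 ± 0.26 for DDC fed adults against E18 (adjusted p = 0.00018). Both calls were lost with hepatocyte marker scaling, which gave -0.58 at E18 (adjusted p = 0.0971) and 0.32 for DDC fed adults against E18 (adjusted p = 0.34).

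Cyp39a1, which hydroxylates an oxysterol formed mainly in brain (chromosome 17, 43667425 to 43751431, plus strand), was the member that rose in both comparisons with normal fed adults. It was at 17.7 and 17.2 TPM in DDC fed samples, 41.0 and 22.9 TPM in E18 samples, and 9.65 and 5.84 TPM in normal fed samples. The groups were apart, with normal fed samples lowest. The log2 fold change was 1.11 ± 0.34 with DDC (limma adjusted p = 0.0396) and 1.89 ± 0.34 at E18 (adjusted p = 0.0019), and -0.78 ± 0.34 for DDC fed adults against E18 (adjusted p = 0.0797). In the last comparison Cyp39a1 passed as lower with hepatocyte marker scaling (-2.945, limma adjusted p = 7.9e-06). The call with DDC was lost in 11 of 20 alternatives, with adjusted p up to 0.351, and that at E18 was lost with quantile normalization (0.72, adjusted p = 0.0784).

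Ratios within a sample take out what scales all genes of that sample alike. Cyp7b1 over Cyp7a1 was 0.742 and 0.688 in DDC fed samples, 0.0147 and 0.0232 in E18 samples, and 5.86 and 8.14 in normal fed samples. Cyp7b1 was thus above Cyp7a1 in normal fed samples and below it in all DDC fed and E18 samples. Cyp8b1 over Cyp7a1 was 0.112 and 0.132 in DDC fed samples, 1.41 and 2.57 in E18 samples, and 1.51 and 3.42 in normal fed samples. This ratio was lower in DDC fed samples than in the others, and those of E18 and normal fed samples overlapped. Baat over Hsd3b7 was 0.941 and 0.993 in DDC fed samples, 0.0423 and 0.0407 in E18 samples, and 1.21 and 1.46 in normal fed samples. E18 samples held far less Baat for each Hsd3b7 transcript than either adult group. Cyp39a1 over Cyp7a1 was 0.318 and 0.296, 0.677 and 0.939, and 0.0719 and 0.116 in DDC fed, E18 and normal fed samples.

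**Figure D3:**
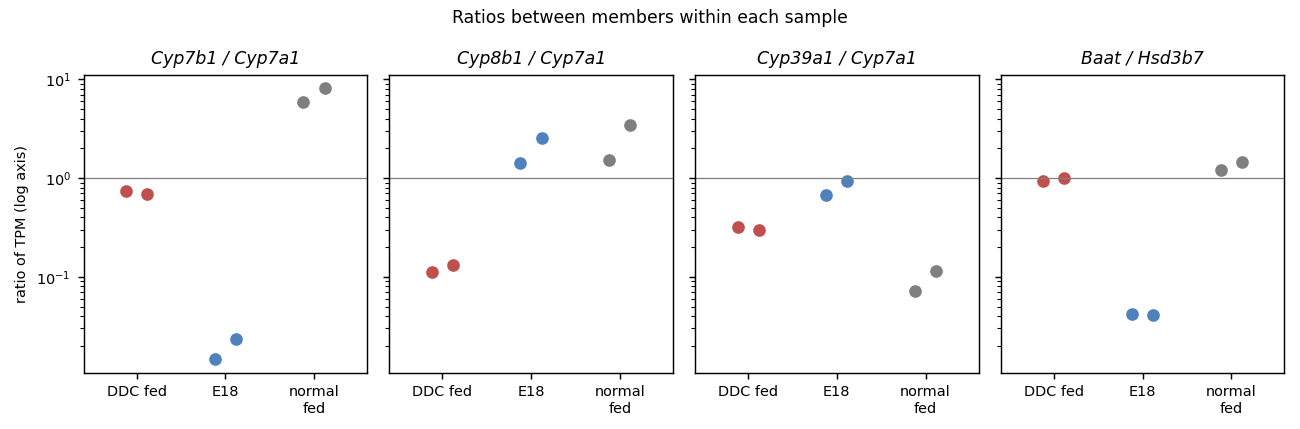
TPM of one gene divided by that of another within each sample, on a log axis, for DDC fed, E18 and normal fed samples. Cyp7b1 over Cyp7a1 is 5.86 and 8.14 in normal fed samples and below 1 in all other samples.

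Among the ring-modifying enzymes that both pathways use, Hsd3b7, a dehydrogenase of the sterol ring (chromosome 7, 127800604 to 127803802, plus strand), did not pass the test in any comparison with TPM as deposited. It was at 262 and 278 TPM in DDC fed samples, 209 and 141 TPM in E18 samples, and 249 and 280 TPM in normal fed samples. Its DDC fed and normal fed ranges overlapped, and its E18 samples were lower. With DDC its log2 fold change was 0.03 ± 0.25 (limma adjusted p = 0.943), with an interval of -0.57 to 0.64, and at E18 -0.62 ± 0.25 (adjusted p = 0.0603). For DDC fed adults against E18 it was 0.65 ± 0.25 (limma adjusted p = 0.0581). There the gene passed as higher with median-ratio scaling (1.18, limma adjusted p = 0.0138). With hepatocyte marker scaling the gene passed as lower in that comparison (-1.59, limma adjusted p = 0.00176). At E18 it passed as lower in 5 of 20 alternatives and as higher with hepatocyte marker scaling (1.79). Akr1d1, the reductase of the ring double bond (chromosome 6, 37530173 to 37568815, plus strand), was at 217 and 254 TPM in DDC fed samples, 96.3 and 60.4 TPM in E18 samples, and 168 and 114 TPM in normal fed samples. It was highest in DDC fed samples and lowest in E18 samples, with no overlap. Its log2 fold change was 0.76 ± 0.31 with DDC (limma adjusted p = 0.0948) and -0.85 ± 0.31 at E18 (adjusted p = 0.0388), and 1.61 ± 0.31 for DDC fed adults against E18 (adjusted p = 0.0035). The call at E18 was lost in 8 of 20 alternatives, and its sign turned with hepatocyte marker scaling, as did that of DDC fed adults against E18 (-0.62, adjusted p = 0.0747).

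With TPM as deposited, none of the peroxisomal and conjugating enzymes passed the test with DDC, and all 3 fell at E18. Among all genes 3.07% fell and 34.2% rose with DDC, and 12.7% fell and 63.0% rose at E18. Amacr, the racemase that prepares the side chain for shortening (chromosome 15, 10981756 to 10996626, plus strand), was at 73.4 and 77.1 TPM in DDC fed samples, 21.2 and 14.4 TPM in E18 samples, and 80.8 and 65.1 TPM in normal fed samples. E18 samples were lowest, and the adult groups overlapped. Its log2 fold change was 0.05 ± 0.24 with DDC (limma adjusted p = 0.896) and -1.99 ± 0.24 at E18 (adjusted p = 0.0003), where hepatocyte marker scaling gave 0.36. DDC fed adults were higher than E18 in Amacr by 2.05 ± 0.24 (limma adjusted p = 0.00038), which hepatocyte marker scaling turned to -0.14 (adjusted p = 0.671), and in Slc27a5 by 3.18 ± 0.33 (limma adjusted p = 0.00019). Slc27a5, which activates bile acids for conjugation (chromosome 7, 12988346 to 12998192, minus strand), was at 403 and 385 TPM in DDC fed samples, 51.6 and 35.0 TPM in E18 samples, and 736 and 423 TPM in normal fed samples. Both DDC fed samples lay below the lower normal fed sample. Its log2 fold change was -0.50 ± 0.33 with DDC (limma adjusted p = 0.266) and -3.68 ± 0.33 at E18 (adjusted p = 6.1e-05), where the mean was 7.48% of normal fed. Baat, which joins bile acids to taurine or glycine (chromosome 4, 49489422 to 49506557, minus strand), was at 247 and 276 TPM in DDC fed samples, 8.86 and 5.72 TPM in E18 samples, and 302 and 409 TPM in normal fed samples. Its E18 mean was 2.05% of the normal fed mean, and the groups were apart. Its log2 fold change was -0.43 ± 0.27 with DDC (limma adjusted p = 0.247) and -5.44 ± 0.27 at E18 (adjusted p = 4.1e-06), and 5.01 ± 0.27 for DDC fed adults against E18 (adjusted p = 1.0e-05).

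Scaling changed how many of the 10 genes passed. All genes had a median log2 fold change of 0.45 with DDC and 1.06 at E18. Median-ratio scaling brought these to -0.01 and 0.03. With it 0 members rose and 5 fell with DDC, Cyp27a1 (-1.11), Slc27a5 (-1.18) and Baat (-1.10) joining Cyp8b1 and Cyp7b1, where 20.8% of all genes rose and 12.6% fell. At E18 1 member rose and 9 fell with median-ratio scaling, Cyp7a1 (-2.26) and Hsd3b7 (-1.82) joining the others, where 36.4% of all genes rose and 33.1% fell. Scaled instead to 6 hepatocyte markers that were above 0 in all samples, an alternative chosen after the data were seen, 5 members rose and 3 fell at E18, where 93.0% of all genes rose and 2.44% fell. For DDC fed adults against E18 the same scaling gave 3 that rose and 4 that fell, where 3.27% of all genes rose and 90.2% fell. Under that scaling Cyp7b1, Slc27a5 and Baat fell at E18. Cyp39a1 (4.15), Hsd3b7 (1.79), Akr1d1 (1.55), Cyp7a1 (1.30) and Cyp8b1 (1.06) were higher at E18 than in normal fed adults. For DDC fed adults against E18, Cyp7b1 (3.09), Baat (2.89) and Slc27a5 (0.96) rose under it. Cyp8b1 (-5.35), Cyp39a1 (-2.945), Cyp7a1 (-1.65) and Hsd3b7 (-1.59) fell in that comparison. Of the 6 markers, 4 (Ttr, Tat, Hnf4a and Asgr1) were themselves lower at E18, Tat by the largest fold, and with DDC 0 of the 6 passed in limma (1, Tat, was lower at an unadjusted p under 0.05). Cyp8b1 and Cyp7b1 fell with DDC under all 20 alternatives.

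**Figure D4:**
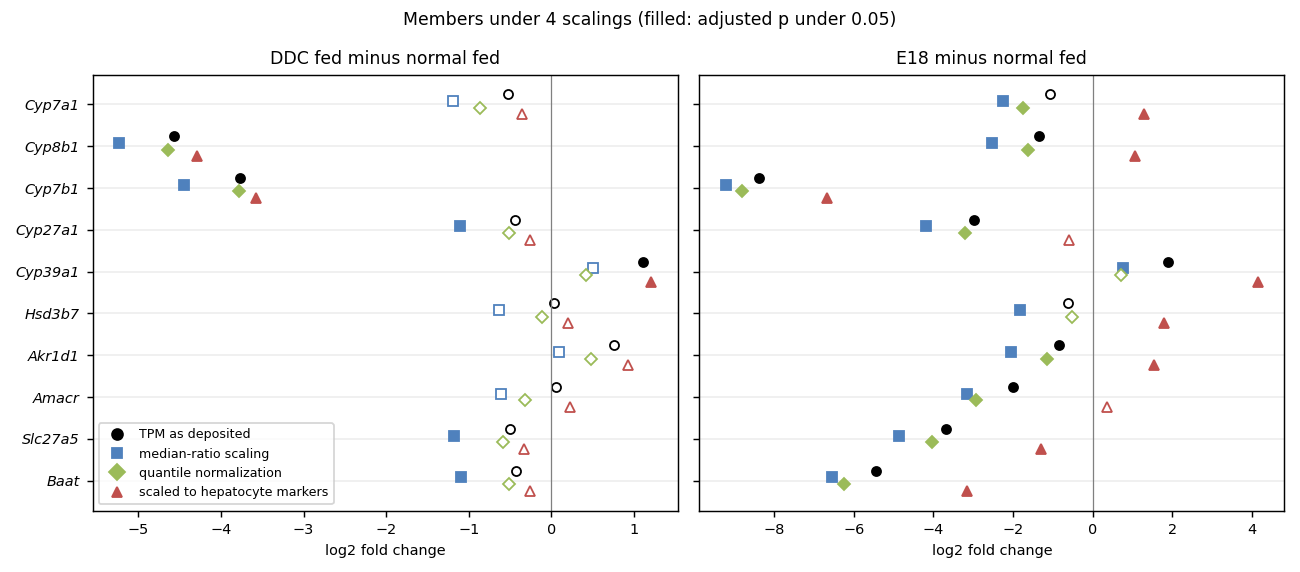
Log2 fold change of the 10 genes for DDC fed and E18 samples against normal fed adults under 4 scalings, filled where the adjusted p was under 0.05. Cyp8b1 and Cyp7b1 with DDC stay filled and left of 0 under all 4. With hepatocyte marker scaling Cyp7a1, Cyp8b1, Cyp39a1, Hsd3b7 and Akr1d1 at E18 are filled and lie right of 0.

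Replicates differed by group. The ratio of sample 0 to sample 1 over the 10 genes ran from 0.811 to 1.16 in DDC fed samples, from 1.29 to 2.48 in E18 samples, and from 0.738 to 2.65 in normal fed samples. All 10 genes were higher in E18 sample 0 than in E18 sample 1, and 8 of 10 in normal fed sample 0. The summed hepatocyte markers were likewise higher in sample 0 of both groups, and their part in this was not tested. Over all genes, longer genes also tended to be higher in sample 0 than in sample 1. The Spearman correlation of this difference with exon length was 0.390 in normal fed, 0.181 in DDC fed and 0.0871 in E18 samples. The part of exon length in the ratios of the 10 genes was not tested. Over all genes the median absolute difference between sample 0 and sample 1 was 0.125 on the log2 scale for DDC fed, 0.168 for E18 and 0.372 for normal fed samples.

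Of 15 other enzymes of bile acid and oxysterol metabolism 14 were tested. With DDC 1 rose, 4 fell and 9 did not pass, against 34.2% of all genes that rose and 3.07% that fell. At E18 0 rose, 11 fell and 3 did not pass, against 63.0% and 12.7% of all genes. At an unadjusted limma p under 0.05 also 0 rose at E18. Their medians were -0.37 and -2.40. Hepatocyte marker scaling, under which 5 members rose and 3 fell at E18, was fitted to all genes. Its values for these enzymes were not examined, so their counts are for TPM as deposited. Between DDC fed adults and E18, 11 rose, 1 fell and 2 did not pass, against 17.7% and 47.0% of all genes. Cyp3a11 is among the 4 counted as lower with DDC and is the 1 counted as lower here. Acnat2, a mouse acyltransferase of the Baat family, was the one that rose with DDC, at 173 and 231 TPM in DDC fed samples, against 36.1 and 52.0 TPM in normal fed samples (log2 fold change 2.18 ± 0.37, limma adjusted p = 0.0043). Its close relative Acnat1 was at 36.6 and 40.7 TPM in DDC fed samples, against 38.1 and 29.0 TPM in normal fed samples, and how reads were split between such copies is not given. Akr1c14 fell with DDC (-1.13 ± 0.28, limma adjusted p = 0.0207), a call lost in 4 of 19 alternatives with adjusted p up to 0.13. Cyp46a1 (-1.02 ± 0.17, limma adjusted p = 0.0043) and Hsd11b1 (-0.74 ± 0.23, limma adjusted p = 0.0419) also fell, and the call of Hsd11b1 was lost in 9 of 19. Cyp3a11, a detoxifying enzyme that hydroxylates bile acids, was listed at 0 in both DDC fed samples, against 3695 and 4181 TPM in normal fed samples. As 80 genes of at least 100 TPM elsewhere are listed at 0 in both samples of a group, and Cyp3a11 has near-identical relatives, no fold is given. The 3 that did not pass at E18 were Acox2, Acot8 and Acnat1.

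Of 17 regulators of the pathway 16 were tested. With DDC 1 rose, 0 fell and 15 did not pass, with a median of 0.17, and at an unadjusted limma p under 0.05 2 were higher and 0 lower. Among all genes 34.2% rose and 3.07% fell. Nr5a2, which encodes LRH-1, was at 32.8 and 34.1 TPM in DDC fed samples, against 20.7 and 13.6 TPM in normal fed samples (0.95 ± 0.30, limma adjusted p = 0.0476), and its call was lost in 11 of 19 alternatives. Hnf4a was at 273 and 251 TPM in DDC fed samples, against 371 and 193 TPM in normal fed samples (-0.03 ± 0.39, limma adjusted p = 0.969). Nr0b2, which encodes the repressor SHP, was at 43.9 and 42.0 TPM in DDC fed samples, 2.41 and 2.38 TPM in E18 samples, and 63.1 and 42.2 TPM in normal fed samples. It overlapped only between the adult groups, and E18 samples were far lower (-3.95 ± 0.24, limma adjusted p = 9.5e-06). At E18 8 regulators fell, 3 rose and 5 did not pass, against 12.7% of all genes that fell and 63.0% that rose. Besides Nr0b2 the genes that fell included Nr1i3 (-4.59), Nr1h3 (-2.15), Fgfr4 (-1.92), Hnf4a (-1.75), Nr1h4 (-1.64) and Nr1i2 (-1.48). Those that rose were Ppargc1a (1.60), Klb (0.97), the co-receptor of Fgfr4, and Mafg. Mafg was at 60.8 and 65.3 TPM in E18 samples, against 37.3 and 20.9 TPM in normal fed samples. Each of the 3 turned negative with median-ratio scaling or quantile normalization. Hepatocyte marker scaling, which turned the sign of Cyp8b1, Akr1d1 and Amacr at E18, was fitted to all genes. Its values for the regulators were not examined, and Hnf4a is itself 1 of the 6 markers that this scaling uses.

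**Figure D5:**
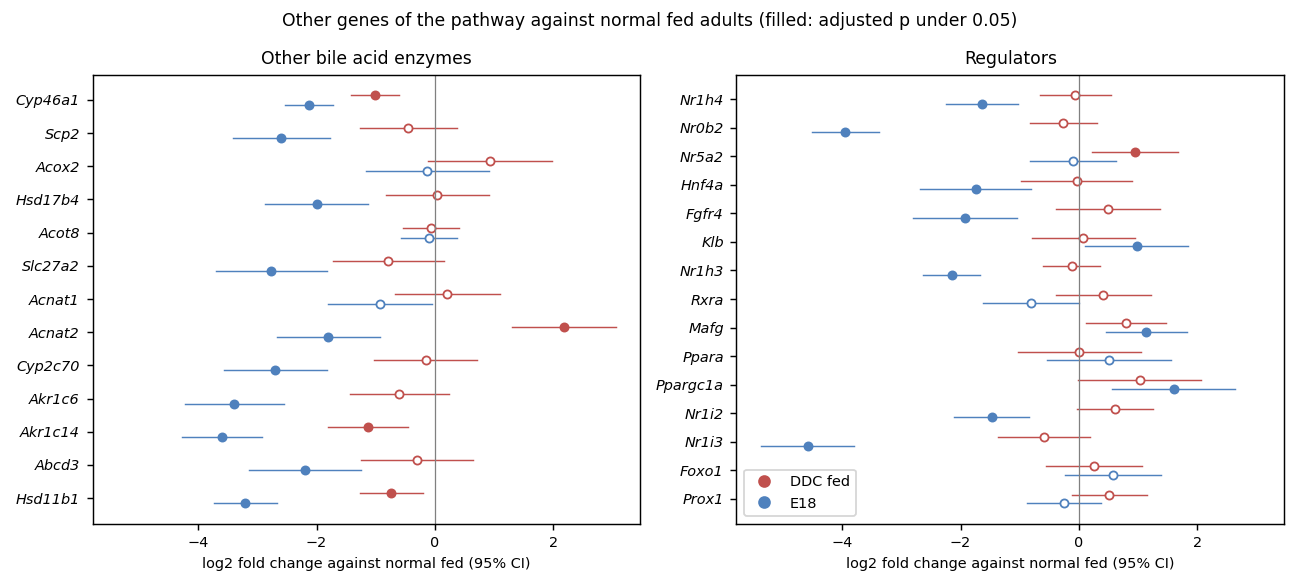
Log2 fold change with 95% confidence interval of the other bile acid enzymes and the regulators for DDC fed and E18 samples against normal fed adults, filled where the adjusted p was under 0.05. Nr0b2 and Nr1i3 lie furthest left at E18 (-3.95 and -4.59), and Acnat2 furthest right with DDC (2.18), while Cyp3a11, listed at 0 in DDC fed samples, and 1 regulator are left out.

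The genes whose pattern over the 6 samples was most like that of a member were found by the smallest root mean square difference of centred log2(TPM + 1) among 9581 protein-coding genes. For Cyp8b1 these were Nrep (0.482), Paqr9 (0.599) and Serpine2 (0.872). Nrep was at 2.54 and 3.27 TPM in DDC fed samples, 90.2 and 54.4 TPM in E18 samples, and 86.3 and 89.1 TPM in normal fed samples. For Cyp7b1 they were Thrsp (0.402), Dio1 (0.407) and Ces3b (0.480), and Thrsp was at 287 and 249 TPM in DDC fed samples, 6.78 and 6.99 TPM in E18 samples, and 2576 and 1388 TPM in normal fed samples. For Cyp7a1 they were Enpep (0.168), Plcxd2 (0.200) and Deptor (0.233), all with the wide spread of the normal fed samples.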

How the data were processed

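Hepatocyte RNA of 6 samples was measured as TPM, which the authors deposited as 1 table of 48432 genes, each column summing to 1000000. Per the submitters' processing notes, the tools were Cuffdiff 2.2.1, DESeq2, HTSeq, Picard 1.119, STAR 2.4.2a, Trimmomatic and bcl2fastq 2.17.1.14 on GRCm38, also called mm10. Which of them made the deposited table, and with which annotation, is not given in the sources used here. There are no counts, so depth and counting error are unknown. Columns numbered 0 and 1 were assigned to groups, since titles number samples differently.

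Of the identifiers 48053 were found in GENCODE M21, annotated on GRCm38. The 14307 genes that reached 1 TPM in 2 or more samples were tested as log2(TPM + 1) with limma 3.58.1 in R 4.3.3: 1 mean per group, 3 residual degrees of freedom, variances following the mean, two-sided p-values adjusted by Benjamini-Hochberg. The fit was also run on simulated data in which each gene had the same spread in all groups. The groups here differ in spread, so that run is no check of the calls given. A fold change is on the log2(TPM + 1) scale and understates changes of low genes. Tables and figures were made with Python 3.11.15, pandas 2.3.3, numpy 2.4.6 and matplotlib 3.10.9.

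The members, lists and tests were chosen with earlier results of these data known. All 10 members are named. Of each other list, up to 6 genes with the smallest adjusted p in any comparison, and all where a count is 5 or fewer, could be named. The 3 genes most like Cyp7a1, Cyp8b1 and Cyp7b1 had at least 10 TPM in the highest group mean, predicted genes left out. Alternatives were other pseudocounts, filters, scalings, fits, thresholds and each sample left out. Scaling to hepatocyte markers was added after the data were seen. It was fitted to all genes, and single-gene values under it were examined for the members only. The values of 1 regulator, which stays in the counts, are not reported here.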

Additional observations from a re-analysis of the deposited data

How the results depend on the processing

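Of 600 member values under alternatives, 524 kept direction and side of the threshold, 32 newly passed, 22 no longer passed and 22 changed sign. Of 434 values of other named genes these were 375, 3, 46 and 10. With DDC, 0 members rose with a pseudocount of 5, no filter, median-ratio scaling, quantile normalization, rescaling without the 50 highest and erythroid genes, exon length correction, only the compared groups or an adjusted p of 0.01 (0 to 2 at an unadjusted limma p under 0.05), and 5 fell with median-ratio scaling or exon length correction. Leaving out 1 sample gave 0 to 2 that rose and 2 to 3 that fell with DDC, 1 and 6 to 9 at E18, and 6 to 7 and 1 to 2 for DDC fed adults against E18. Without normal fed sample 0, Akr1d1 rose with DDC (1.04), and without normal fed sample 1, Slc27a5 fell (-0.90). At E18 quantile normalization left 0 that rose, also at an unadjusted limma p under 0.05. Scaled to hepatocyte markers, 5 rose and 3 fell at E18, and 3 rose and 4 fell for DDC fed adults against E18. For that comparison 2 fell with only the compared groups in the fit. With the replicate number as a block also 2 fell, Cyp39a1 passing (adjusted p = 0.0312), and Cyp7a1 passed at E18 (-1.08, adjusted p = 0.0243). Same-numbered samples correlated in their differences at 0.233, 0.139 and 0.0605, and the numbers do not establish a pairing. The log2 difference of the summed level with median-ratio scaling was -1.36 with DDC, -3.61 at E18 and 2.26 for DDC fed adults against E18, and leaving out 1 sample gave -0.91 to -0.45, -2.72 to -2.10 and 1.42 to 2.04.

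Of the 22 sign changes of members, 11 were of Hsd3b7 and Amacr with DDC, whose values lay near 0. With DDC, Hsd3b7 was -0.64 with median-ratio scaling, -0.11 with quantile normalization, -0.14 rescaled and -0.47 with exon length correction, and Amacr -0.61, -0.31, -0.12 and -0.43. Scaled to hepatocyte markers, E18 values were 1.30 for Cyp7a1, 1.06 for Cyp8b1, 1.79 for Hsd3b7, 1.55 for Akr1d1 and 0.36 for Amacr, and DDC fed adults against E18 were -1.65 for Cyp7a1, -1.59 for Hsd3b7, -0.62 for Akr1d1 and -0.14 for Amacr. At E18 Klb was -0.12, -0.40 and -0.16 with median-ratio, quantile and exon length, Mafg -0.031 and -0.084 with median-ratio and exon length, and Ppargc1a -0.14 with quantile normalization. Leaving out 1 sample gave with DDC -1.22 to 0.17 for Cyp7a1, -0.051 to 0.12 for Hsd3b7, -0.10 to 0.21 for Amacr and -0.50 to 0.44 for Hnf4a, at E18 -0.44 to 0.25 for Nr5a2, and -0.084 to 1.19 for Cyp7a1 in DDC fed adults against E18. The cause was not tested. Depth is unknown, so the reliability of values under 1 TPM, such as Cyp7b1 at E18, is not known.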

Other observations

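Transporters of bile acids, 11 of 12 tested, were counted the same way. With DDC 7 rose, 2 fell and 2 did not pass, where 34.2% of all genes rose and 3.07% fell. At E18 1 rose, 6 fell and 4 did not pass, where 63.0% rose and 12.7% fell. The values of the transporters under hepatocyte marker scaling were not examined. Abcb11, the bile salt export pump, was at 269 and 198 TPM in DDC fed samples, 70.7 and 41.1 TPM in E18 samples, and 99.1 and 58.4 TPM in normal fed samples. It rose with DDC (log2 fold change 1.59 ± 0.37, limma adjusted p = 0.0153), a call lost in 5 of 19 alternatives. Abcc4, an efflux pump of the sinusoidal membrane, was at 29.6 and 20.1 TPM in DDC fed samples, 7.39 and 8.29 TPM in E18 samples, and 0.169 and 0.0914 TPM in normal fed samples, and rose with DDC (4.49, limma adjusted p = 5.4e-05) and at E18 (2.97, limma adjusted p = 3.5e-05). Slc51b, a subunit of an efflux transporter, was at 46.5 and 50.2 TPM in DDC fed samples, against 1.52 and 2.24 TPM in normal fed samples, while its partner Slc51a was listed at 0 in all adult samples. Uptake carriers did not move alike with DDC: Slc10a1 and Slco1a1 fell (-1.47 and -3.84, limma adjusted p = 0.0174 and 0.000238). Slco1a4 rose, at 206 and 184 TPM in DDC fed samples, against 67.4 and 28.0 TPM in normal fed samples (2.14, limma adjusted p = 0.0058), and Slco1b2 did not pass (-0.57, limma adjusted p = 0.103).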
